A study of Mus musculus with 27 samples.

Results

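Each of 7 lung metastases of mouse osteosarcoma was set against the primary tumour that bears the same specimen identifier in its title, which gave 7 pairs, or 14 of the 27 samples of the series. The pairs were CR-147, CRE-155, FC-279, FC-28, RF-212, RF-364 and RF-379. Per the labels, the tumours arose in mice that carried the Col2.3-Cre transgene, in which the rat Col1a1 2.3 kb promoter drives Cre in the osteoblast lineage. These mice, backcrossed to C57BL/6, were crossed either to floxed p53 mice or to LSL-p53R172H mice, so lung metastases and primaries share the transgene and an altered p53 gene. Neither the allele of a given tumour nor the age of any animal is given, and p53 transcripts themselves were not analysed here. The remaining samples were 5 further metastatic primaries, 6 localized primaries and 2 liver metastases.

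Osteosarcoma is a malignant tumour of bone whose cells resemble osteoblasts, and the lung is the organ to which it spreads most often. Tumour cells that leave the bone pass from a tissue of mineralised matrix, muscle and marrow into one of air sacs, capillaries and resident macrophages. A piece of tissue cut from a lung lesion can hold both, and in RNA from whole tissue, fewer cells of a type and less RNA per cell cannot be told apart.

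The 14 arrays detected 43.2% to 46.9% of their probes. The background, taken as the median log2 signal of probes that were not detected, moved with the group: it was 5.45 to 5.65 (median 5.54) on the lung metastasis arrays and 5.75 to 6.26 (median 6.16) on the primary arrays, with no overlap. Only the FC-28 pair joined 2 arrays of low background, and the other 6 pairs joined an array of low background to one of high background. The FC-28 specimen also stood apart in its content. Its bone matrix genes averaged 5.91 in the lung metastasis and 6.67 in the primary on the log2 scale, against 10.76 to 11.38 in the other 6 lung metastases and 10.96 to 11.49 in their primaries. The label calls it osteosarcoma, but its defining bone markers were low on both arrays. In that pair 40.6% of the genes differed by more than 2-fold, against 10.4% to 22.8% in the others. Counts are therefore also given without it.

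**Figure D1:**
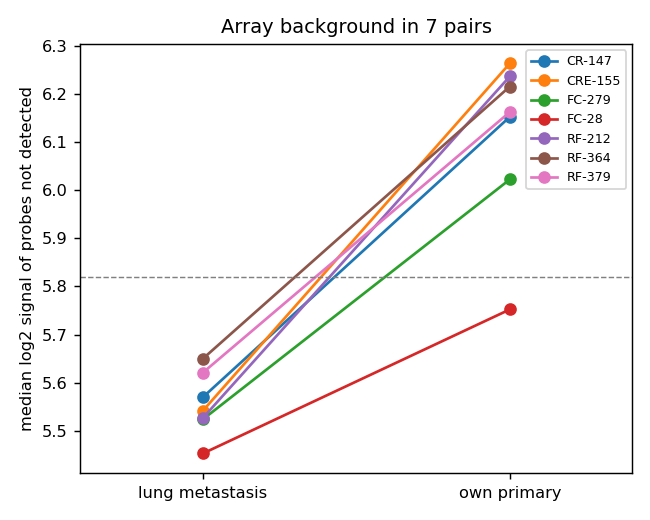
Array background, the median log2 signal of the probes not detected, in the 7 lung metastases (left) and their own primaries (right), with a line for each pair. The dashed line divides low from high arrays, and the FC-28 primary at 5.75 was the one primary below it.

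Of 11214 genes tested with limma in a paired fit, 638 were higher (5.69%) and 291 were lower (2.59%) in the lung metastases at an adjusted p under 0.05, with a median over all genes of -0.06 on the log2 scale. At an unadjusted p under 0.05, 1452 were higher (12.9%) and 1487 were lower (13.3%). When the arrays were scaled by their medians and not quantile normalized, 643 were higher (5.73%) and 2022 were lower (18.0%). Higher genes then made up 24.1% of the calls, where they made up 68.7% with quantile normalization, and the median over all genes was -0.32. Among the 638 and 291 calls, 90 higher and 38 lower genes stood on lists of lung, muscle and liver tissue. Outside those lists 548 genes were higher (4.99% of 10976) and 253 were lower (2.31%). The higher genes differed by more, with a median log2 fold change of 1.63, and 202 of them reached 2 or more. The lower genes had a median of -0.77, and 7 reached -2 or less. Without the FC-28 pair 522 were higher and 208 were lower outside the tissue lists (over all genes tested, 5.46% higher and 2.2% lower). The higher genes numbered 318 without RF-212, and the lower genes 63 without FC-279 or RF-364, 76 without RF-212, 135 without RF-379 and 140 without CR-147. Without CRE-155, 170 of all 11214 genes were lower. With array background as a covariate 8 were higher and 9 were lower (over all genes tested, 0.152% and 0.0803%), a fit in which low and high background coincide with the group in 6 of 7 pairs. When the 7 lung metastases were instead set, unpaired, against the 6 primaries of the series with low background, 351 were higher and 93 were lower (over all genes tested, 3.78% and 0.874%). Of these 6 primaries 4 were localized tumours, and all but FC-28 were other specimens than the 7 pairs, so the comparison also differs in the kind of tumour and in the specimens. It shares the lung metastases and the FC-28 primary with the paired one, and both called 234 of the 548 genes that were higher and 23 of the 253 that were lower. In the FC-28 pair the direction was the same for 540 of the 548 and 252 of the 253. That pair was 1 of the 7 in the fit that picked these genes, so these counts are no test of array background. The part of array background in single results was not tested.

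Transcripts of lung tissue were higher and those of skeletal muscle lower in the lung metastases. Lung epithelium genes averaged 9.43 to 11.33 in the lung metastases and 5.83 to 6.52 in the primaries, and 48 of 53 were higher (median log2 fold change 3.91, or 3.90 when the 12 members that no primary detected are set to the lower limit of their change). Of 28 genes of lung vessels and stroma 14 were higher, as were 11 of 15 ciliated cell genes, 4 of 7 mesothelium genes and 4 of 6 alveolar macrophage genes. Skeletal muscle genes averaged 6.51 to 7.34 in the lung metastases and 7.03 to 10.17 in the primaries, and 38 of 103 were lower (median -1.34). The count was 62 with median scaling (18.0% of all genes were lower there). It was 20 without the 3 pairs with hepatocyte transcripts described next (0.455% of all genes were lower there). Against the low-background primaries it was 5 (median -0.67, 1 higher), where 0.874% of all genes were lower. With array background as a covariate it was 0, with a median of 0.01. Hepatocyte genes averaged 10.77, 10.09 and 10.45 in the lung metastases of CR-147, RF-364 and RF-379 and 6.55 to 7.92 in the other 4. In the primaries they averaged 5.70 to 7.11, and 10 of 27 were higher. The 3 pairs left out in some fits are CR-147, RF-364 and RF-379, which had the highest levels. The other pairs had medians of 2.51 in CRE-155, 1.27 in RF-212, 0.55 in FC-28 and -0.16 in FC-279. In the fit without the 3 pairs the hepatocyte list median was 0.83. The results below lie outside these 7 lists, except where a tissue list or its members are named. The samples behind all of them differed by these amounts, and the part of lung, muscle and liver RNA in any result was not tested.

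**Figure D2:**
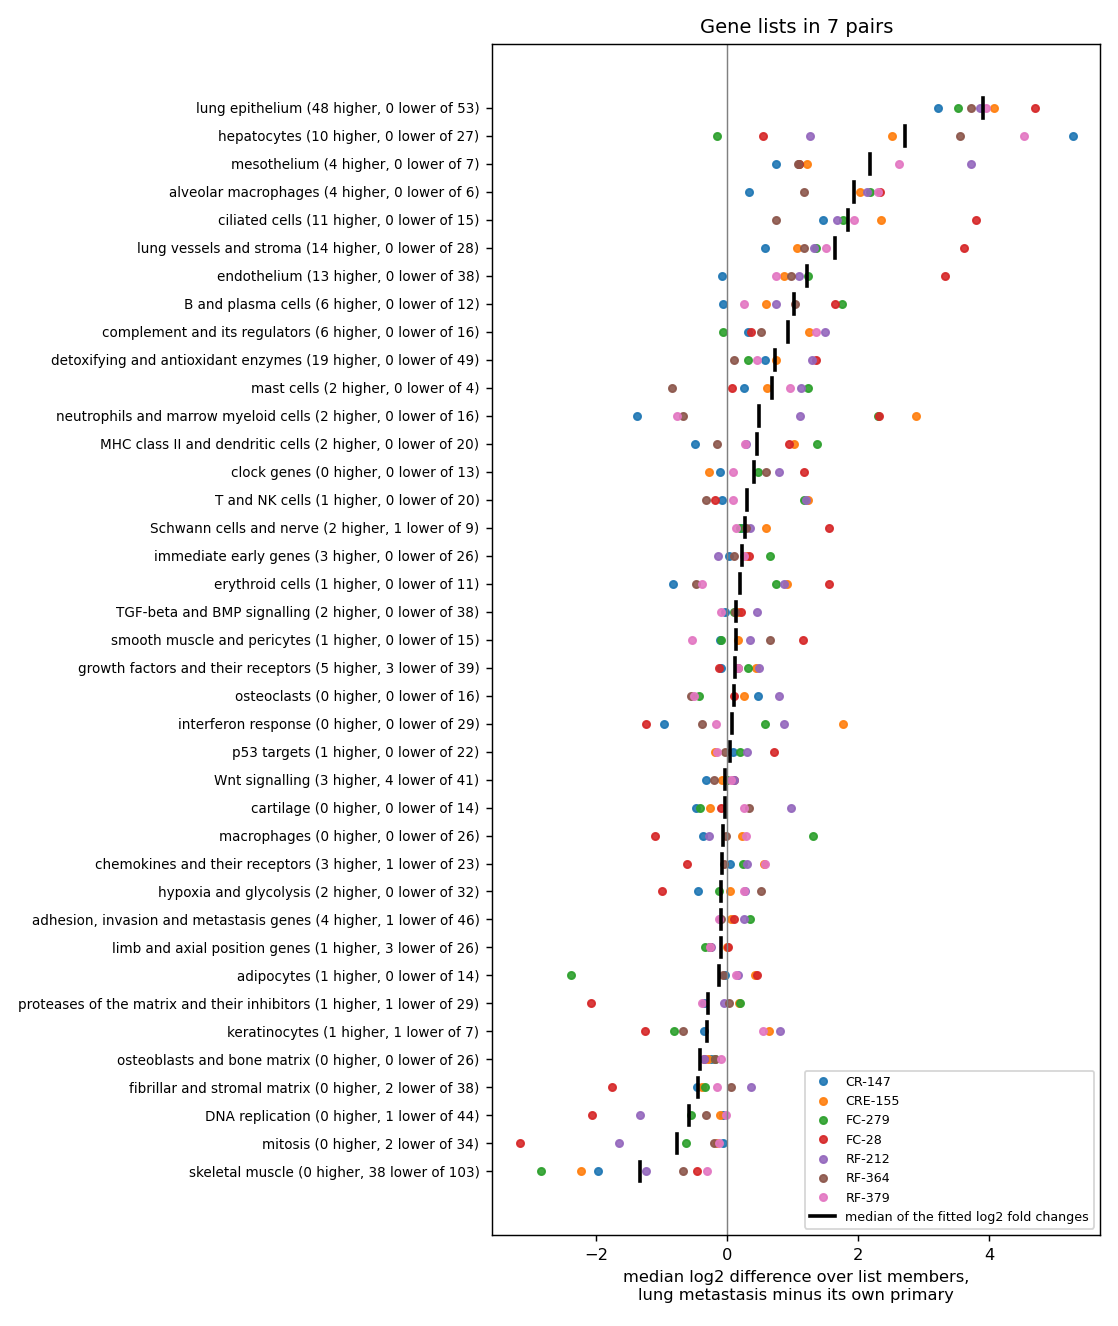
Median log2 difference of each gene list, lung metastasis minus its own primary, on the horizontal axis, with a point for each of the 7 pairs and a bar at the median of the fitted log2 fold changes. The lung epithelium list had all 7 pairs above 3, and FC-28 was the far point in the endothelium and mitosis lists. The bone matrix list lay close to 0 in all 7, but in FC-28 its genes were low on both arrays.

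The 3 subunits of the epithelial sodium channel were among the 12 genes that were highest in the lung metastases. The channel takes up sodium from the fluid that lines airways and air sacs, and Scnn1a, Scnn1b and Scnn1g encode its alpha, beta and gamma subunits. Scnn1b and Scnn1g both lie on chromosome 7, and the sequences before their starts are shown because the 2 genes moved together. The Ptn sequence, from chromosome 6, is shown beside them as that of the gene with the lowest fold change among those named outside the tissue lists. They come from RefSeq, build GRCm38.p6, and are written 5′ to 3′ on the gene's strand up to the first base of the gene.
Scnn1b, chr7:121864788-121865037, plus strand: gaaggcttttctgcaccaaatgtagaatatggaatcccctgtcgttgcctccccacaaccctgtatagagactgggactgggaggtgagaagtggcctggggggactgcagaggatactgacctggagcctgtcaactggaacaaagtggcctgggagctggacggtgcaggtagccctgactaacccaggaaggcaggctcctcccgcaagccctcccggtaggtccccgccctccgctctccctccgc
Scnn1g, chr7:121734229-121734419, plus strand: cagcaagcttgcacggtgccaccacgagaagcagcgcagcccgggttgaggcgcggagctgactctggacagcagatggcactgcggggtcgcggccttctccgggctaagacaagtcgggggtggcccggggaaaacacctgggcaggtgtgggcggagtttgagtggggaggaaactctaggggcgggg
Ptn, chr6:36810180-36810429, minus strand: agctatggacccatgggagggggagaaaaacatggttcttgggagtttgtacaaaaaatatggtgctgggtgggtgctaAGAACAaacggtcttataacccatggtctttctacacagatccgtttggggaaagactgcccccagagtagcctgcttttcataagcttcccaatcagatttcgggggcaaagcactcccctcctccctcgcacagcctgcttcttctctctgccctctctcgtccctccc
The motifs searched, on both strands, were TGTTTAC, a forkhead motif, CTCAAG, the core of NKX2-1 motifs, and TGTTCT, a steroid receptor half-site; they do not overlap here. The capitals mark the 1 match, TGTTCT in the reverse orientation as AGAACA, which begins 171 bases before the start of Ptn. Of 32851 RefSeq promoters, 16.1% hold TGTTCT in the 250 bases before the start, 13.3% hold CTCAAG and 3.17% hold TGTTTAC. The Scnn1b window and the shorter Scnn1g window hold none of these letters in that order, and nothing follows from that about the factors.

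Scnn1g had levels of 9.65, 11.11 and 12.54 (lowest, median and highest of 7, log2 normalized intensity) in the lung metastases and 4.48, 4.62 and 4.71 in the primaries. None of the 7 primaries was above background, so the change is given as a lower limit. It compares the mean of the lung metastases with a floor for each primary array, which is the dimmest detected probe or, where brighter, the probe itself. Scnn1g was at least 53.3-fold higher by that measure (limma, adjusted p = 2.69e-06) and Scnn1b at least 36.0-fold (adjusted p = 8.86e-06). Scnn1a stood at 9.94, 11.04 and 13.00 in the lung metastases and 4.64, 4.89 and 5.88 in the primaries, 3 of which detected it. Its log2 fold change was 5.98 (SE 0.40, adjusted p = 2.55e-05). For all 3 subunits every lung metastasis lay above every primary. The 2 liver metastases had Scnn1g levels of 6.56 (CR-147) and 4.64 (RF-342).

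Several of the other genes in that group of 12 are known from epithelia or from detoxification. Clic3, a chloride channel-like protein, was at least 60.8-fold higher, Akap5, an anchor for protein kinase A, at least 52.7-fold and Prr15l at least 37.8-fold (limma, adjusted p 8.79e-06, 1.80e-05 and 8.66e-06). Gprc5a, an orphan receptor abundant in lung epithelium, had levels of 10.75, 12.17 and 13.71 in the lung metastases and 5.51, 6.18 and 8.94 in the primaries, with a log2 fold change of 5.68 (SE 0.24). Chil1, a secreted chitinase-like protein, stood at 10.65, 12.58 and 13.75 in the lung metastases and 5.89, 7.24 and 9.10 in the primaries (log2 fold change 5.38, SE 0.56). In neither of these genes did the groups overlap. Ces1d, a carboxylesterase, was an exception, because the FC-279 primary reached 12.55, inside the range of the lung metastases (11.77 to 14.18).

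Detoxifying and antioxidant enzymes made up the biology list with the most higher members. Of 49 tested, 19 were higher and 0 were lower by limma (27 and 4 at an unadjusted p under 0.05, where all genes gave 12.9% and 13.3%), with a median log2 fold change of 0.73. By the adjusted p, all genes gave 5.69% and 2.59%. Cyp2b10 and Cyp2a5, cytochrome P450 enzymes, were at least 49.1-fold and at least 32.8-fold higher. Aox3, an aldehyde oxidase, had levels of 8.54, 9.82 and 11.18 in the lung metastases and 4.68, 4.92 and 5.34 in the primaries (log2 fold change 4.75, SE 0.24, adjusted p = 4.85e-06 by limma). Aldh1a1, which makes retinoic acid, stood at 9.79, 10.58 and 12.79 in the lung metastases and 4.58, 5.88 and 7.28 in the primaries (log2 fold change 4.75, SE 0.28). Liver makes the same enzymes: Cyp2a5 stood at 13.59 and 13.52 in the 2 liver metastases. Without the 3 pairs with hepatocyte transcripts 10 of the 49 were higher (3.33% of all genes). In that fit Cyp2a5 had a log2 fold change of 6.29, Aox3 of 5.13 and Aldh1a1 of 4.87. The hepatocyte list still had a median of 0.83 there, and the part of liver RNA in these values was not tested.

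Of 16 complement genes 6 were higher and 0 were lower by limma (7 and 1 at an unadjusted p under 0.05), with a median of 0.93. All genes gave 5.69% higher and 2.59% lower by the adjusted p. Hc, which encodes complement component C5, stood at 8.34, 9.34 and 10.86 in the lung metastases and 4.58, 4.79 and 5.12 in the primaries, none of which detected it. It was at least 18.3-fold higher (limma, adjusted p = 1.08e-05). C6, which joins C5 in the pore-forming complex, stood at 7.72, 9.24 and 9.82 in the lung metastases and 4.56, 4.80 and 5.58 in the primaries (log2 fold change 4.15, SE 0.20, adjusted p = 3.16e-06). C4a rose by 1.71 and Cd55, a membrane protein that limits complement, by 1.33 on the log2 scale, a call lost without RF-212. Without the 3 pairs with hepatocyte transcripts 3 of the 16 were higher (3.33% of all genes), while the hepatocyte list median was 0.83. In that fit C6 stood at 4.32 and Hc at 4.64, while C4a no longer passed (1.47, adjusted p = 0.0998).

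**Figure D3:**
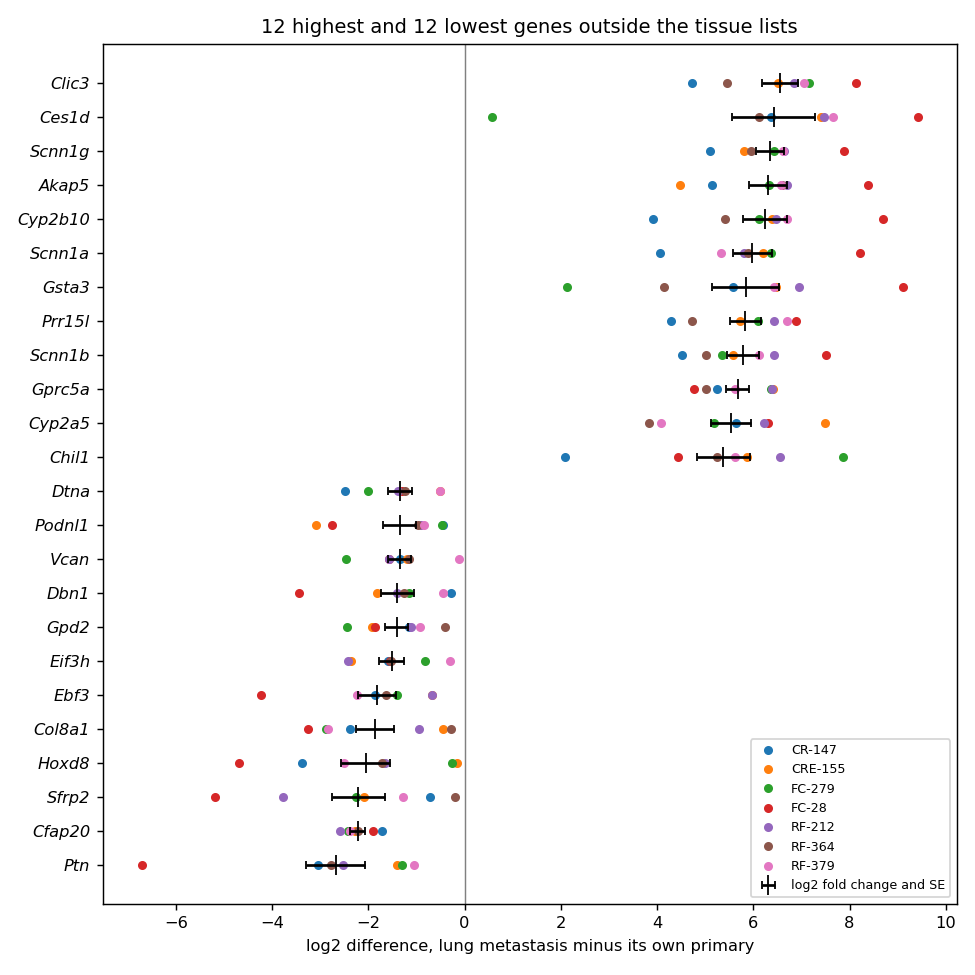
Log2 difference in each of the 7 pairs (points) and the log2 fold change with its SE (bars) for the 12 highest and 12 lowest genes outside the tissue lists. The FC-28 pair lies at the outer end for many genes, including Ptn at -6.71.

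Endothelium is the inner lining of vessels, and some of its genes were higher in the lung metastases. Of 38 endothelium genes 13 were higher and 0 were lower by limma (23 and 0 at an unadjusted p under 0.05). By the adjusted p 5.69% of all genes were higher and 2.59% lower. The list median log2 fold change was 1.22, and 0.81 without FC-28, where 15 of the 38 and 5.46% of all genes were higher. Vwf, the clotting factor stored by endothelium, stood at 10.28, 11.46 and 13.75 in the lung metastases and 6.59, 8.26 and 9.96 in the primaries, and its log2 fold change was 3.26 (SE 0.30, limma adjusted p = 0.000229). Gja5 and Gja4, connexins of arterial endothelium, rose by 2.81 and 2.30. In these 3 genes the groups did not overlap. Without the 3 pairs with hepatocyte transcripts 4 of the 38 were higher (median 1.59), where 3.33% of all genes were. Against the low-background primaries 8 were higher (median 1.20), where 3.78% of all genes were. Of 15 genes of smooth muscle and pericytes, the outer cells of vessels, 1 was higher and 0 were lower (median 0.13). Cav1, the coat protein of caveolae and a member of the endothelium list, rose by 1.56 with 6 of 7 pairs higher. The endothelium list mean was 9.02 to 11.67 in the lung metastases and 8.47 to 9.02 in the primaries. The highest value was that of the FC-28 lung metastasis.

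Bone genes gave no calls with quantile normalization and a few lower ones with median scaling. Of 26 osteoblast and bone matrix genes 0 were higher and 0 were lower by limma (0 and 6 at an unadjusted p under 0.05, against 13.3% lower over all genes), and the median log2 fold change was -0.41. Over all genes 5.69% were higher and 2.59% lower by the adjusted p. With median scaling 6 were lower, where 18.0% of all genes were, and the median was -0.68, beside the -0.32 of all genes. The medians of single pairs ran from -0.36 to -0.10, and without FC-28 the list median was -0.12. In FC-28 the pair median was -0.35, but its bone genes were low on both arrays, so that value says little about change. Col1a1, the main chain of bone collagen, had levels of 8.92, 15.07 and 15.64 in the lung metastases and 12.96, 14.88 and 15.57 in the primaries (log2 fold change -0.48, SE 0.50, adjusted p = 0.548). The low values of both groups were those of FC-28, and without that pair the log2 fold change was 0.11 (SE 0.13). Sparc, a protein that binds collagen and mineral, was at -0.01 (SE 0.14). Against the 6 low-background primaries, which include FC-28, the list median was 1.60. Of 14 cartilage and 16 osteoclast genes 0 were higher and 0 were lower by limma (medians -0.04 and 0.11, or -0.15 and -0.16 with median scaling, which called 1 osteoclast gene lower; 1 and 0 cartilage genes and 0 and 1 osteoclast genes at an unadjusted p under 0.05), and Ctsk, the collagen-cleaving protease of osteoclasts, stood at -0.35 (SE 0.49).

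**Figure D4:**
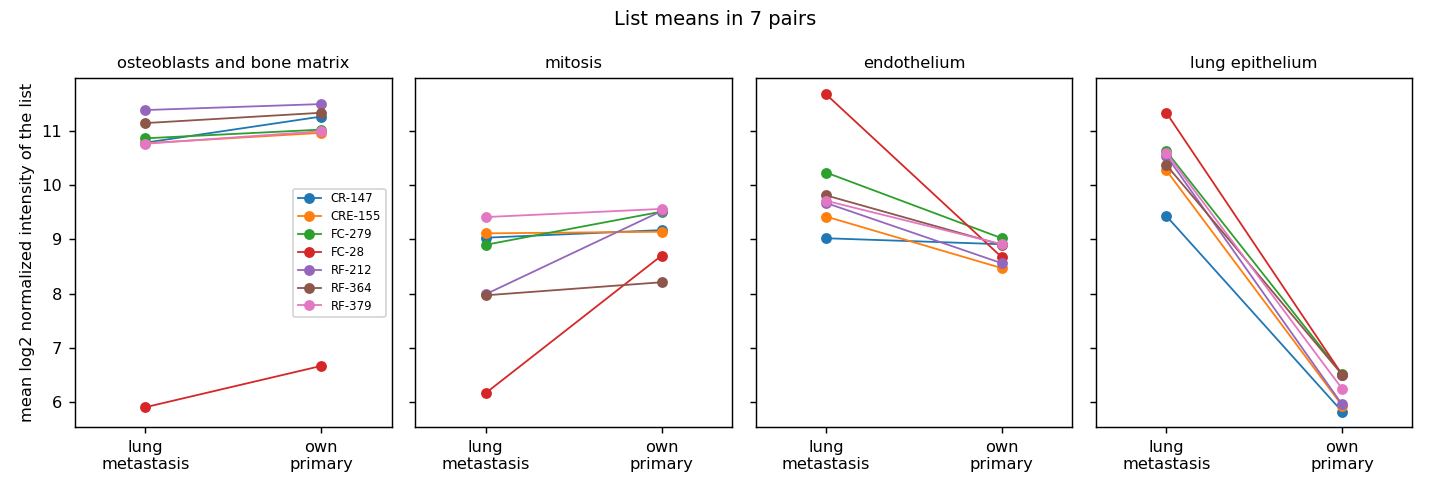
Mean log2 normalized intensity of 4 gene lists in the 7 lung metastases (left of each panel) and their own primaries (right), with a line for each pair. Bone matrix genes of FC-28 stood at 5.91 and 6.67, below all other samples, while its mitosis genes were low in the lung metastasis (6.17) and at 8.70 in the primary.

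Of 34 mitosis genes 2 were lower and 0 were higher by limma, and the list median was -0.77 (-0.46 without FC-28), beside -0.06 for all genes. The medians of single pairs ran from -3.17 in FC-28, -1.66 in RF-212 and -0.63 in FC-279 to -0.06 in CR-147, where the median of all genes was -0.05. Ccna2, cyclin A, fell by 0.93 and Ect2, which positions the cleavage furrow, by 1.19 on the log2 scale (limma, adjusted p = 0.0245 and 0.0349). Both calls were lost without FC-279, RF-212 or RF-364, and that of Ect2 also without CRE-155. At an unadjusted p under 0.05, 12 mitosis genes were lower, where 13.3% of all genes were. Of 44 DNA replication genes 1 was lower, close to the 2.59% of all genes. It was Prim1, a primase subunit (log2 fold change -0.65). The list median was -0.59, with 22 lower and 1 higher at an unadjusted p under 0.05, and the pair medians ran from -2.06 in FC-28 to -0.02 in RF-379, where all genes had -0.06. The Prim1 call was lost without RF-379, RF-212, FC-279 or CRE-155. With median scaling, where 18.0% of all genes were lower, 8 mitosis and 16 DNA replication genes were lower, and the list medians were -1.05 and -0.87.

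Among the genes named outside the tissue lists, Ptn had the lowest fold change. Ptn, the secreted growth factor pleiotrophin, had levels of 4.67, 7.62 and 9.66 in the lung metastases and 8.83, 10.36 and 11.38 in the primaries. Its log2 fold change was -2.68 (SE 0.61, adjusted p = 0.0289 by limma), all 7 pairs were lower, and it was -2.01 (SE 0.30, adjusted p = 0.00496) without FC-28. The call was lost without CR-147, RF-212 or RF-364. Sfrp2, which binds Wnt proteins, stood at -2.21, Hoxd8, a limb and trunk homeobox gene, at -2.05, Col8a1, a collagen of vessel and tumour stroma, at -1.86 and Ebf3, a transcription factor of stroma, at -1.82. All of these overlapped between the groups. The Sfrp2 call was lost in 4 of the 7 fits that left out a pair (CRE-155, FC-279, RF-212 and RF-379), and that of Hoxd8 in 5 (CR-147, FC-28, RF-212, RF-364 and RF-379). Col8a1 lost its call without CR-147, FC-279 or RF-379, and Ebf3 without FC-279, RF-364 or RF-379. Col8a1 and Vcan were the 2 genes called lower of 38 fibrillar and stromal matrix genes, of which 0 were higher (median -0.45, and -1.76 in FC-28). Over all genes 2.59% were lower and 5.69% higher. Vcan, the matrix proteoglycan versican, fell by 1.35 on the log2 scale and passed in every fit that left out a pair.

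Among the 12 lowest genes the groups did not overlap for Cfap20 and Gpd2. Cfap20, a cilium and centriole protein, had levels of 5.18, 5.66 and 6.57 in the lung metastases and 7.33, 7.99 and 8.95 in the primaries (log2 fold change -2.22, SE 0.15, adjusted p = 2.55e-05 by limma). Ciliated cell genes were higher in the same lung metastases. Gpd2, the mitochondrial glycerol-3-phosphate dehydrogenase, stood at 8.11, 8.65 and 8.97 in the lung metastases and 9.38, 9.86 and 10.68 in the primaries (log2 fold change -1.41, SE 0.24, adjusted p = 0.00842). Both passed without any single pair, and against the low-background primaries they stood at -1.65 and -1.69 (adjusted p = 0.00225 and 0.00196). The 2 liver metastases had Cfap20 levels of 7.44 and 6.49 and Gpd2 levels of 10.28 and 9.77. All 7 lung metastases lay below all 7 primaries for 35 of the 11214 genes (0.312%) and above them for 240 (2.14%).

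**Figure D5:**
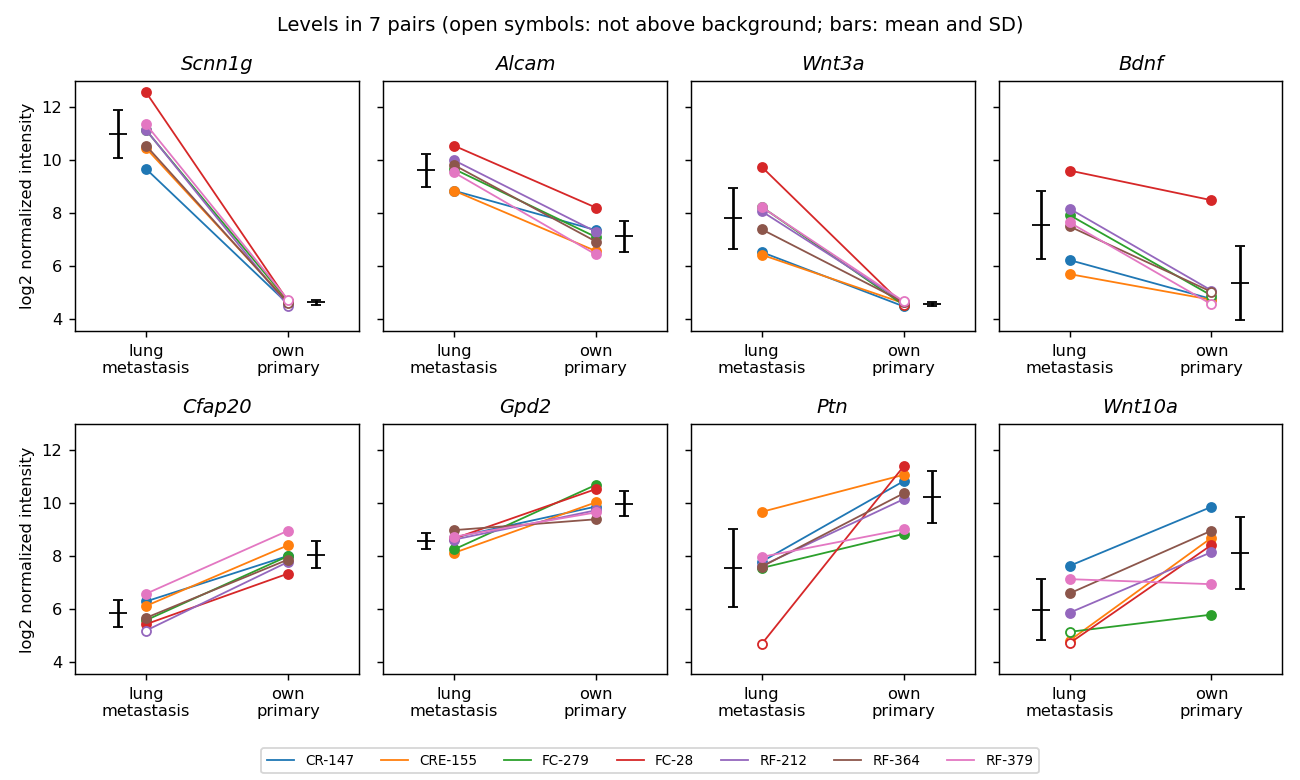
Log2 normalized intensity of 8 genes in the 7 lung metastases (left) and their own primaries (right), with a line for each pair, open symbols for arrays not above background, and the mean and SD beside each group. Scnn1g, Alcam, Wnt3a, Cfap20 and Gpd2 do not overlap, and in Bdnf the FC-28 primary stands at 8.47 above the other primaries.

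Ligands of the Wnt pathway moved in both directions. Of 41 Wnt genes 3 were higher and 4 were lower (median -0.03), where 5.69% of all genes were higher and 2.59% lower. With median scaling 3 were higher and 8 lower (median -0.20, 18.0% of all genes lower). Wnt3a, a ligand of the canonical pathway, had levels of 6.41, 8.05 and 9.73 in the lung metastases and 4.46, 4.58 and 4.65 in the primaries, and was at least 5.90-fold higher (limma, adjusted p = 0.000808). Wnt7a, a ligand made by epithelia, was at least 4.38-fold higher, and neither was above background in any primary. Nkd1, an inhibitor that Wnt signalling induces, rose by 2.67 on the log2 scale. Wnt10a, a ligand that promotes bone formation, stood at 4.70, 5.85 and 7.62 in the lung metastases and 5.78, 8.41 and 9.85 in the primaries (log2 fold change -2.13, SE 0.47, adjusted p = 0.0258). Its groups overlapped, and its call was lost without CR-147, CRE-155, RF-212 or RF-364.

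Growth factors and adhesion molecules also gave calls in both directions. Of 39 growth factor genes 5 were higher and 3 were lower, and of 46 adhesion and invasion genes 4 were higher and 1 was lower. The shares over all genes were 5.69% higher and 2.59% lower. With median scaling 4 of the growth factor and 9 of the adhesion genes were lower, against 18.0% of all genes. Fgf1 rose by 2.73, Bdnf, a neurotrophin, by 2.18, Igfbp2, which binds insulin-like growth factors, by 2.40 and Pdgfb, a growth factor for pericytes, by 1.45 on the log2 scale. Alcam, a cell adhesion molecule, had levels of 8.83, 9.65 and 10.53 in the lung metastases and 6.42, 7.08 and 8.19 in the primaries, without overlap (log2 fold change 2.48, SE 0.20, adjusted p = 8.09e-05 by limma). Itga3 and Itga6, laminin-binding integrin chains, rose by 1.38 and 1.31. The Igfbp2 call was lost without RF-212. Itga11, a collagen-binding chain, fell by 0.79, lost its call without CR-147, CRE-155, RF-364 or RF-379, and was at 1.05 against the low-background primaries. Bdnf was at 0.61 (adjusted p = 0.751) in that comparison.

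Immune and stress lists showed scattered members. By the adjusted p, 5.69% of all genes were higher and 2.59% were lower. Of 12 B and plasma cell genes 6 were higher (median 1.02), but 1 was higher without FC-28, where 5.46% of all genes were. The list median was 0.54 against the low-background primaries. Of 16 genes of neutrophils and marrow myeloid cells 2 were higher and 0 were lower (median 0.48, from -1.38 in CR-147 to 2.89 in CRE-155, above 0 in 4 of 7 pairs). Without the 3 pairs with hepatocyte transcripts 9 of the 16 were higher, where 3.33% of all genes were. The 2 higher genes over all 7 pairs were Lcn2 and Chil3. Lcn2, an iron-binding protein of neutrophils and airway epithelium, rose by 2.93 and Chil3, a chitinase-like protein of macrophages, by 2.92. Of 4 mast cell genes 2 were higher and 0 were lower. Hdc, which makes histamine, and Kit, the receptor of stem cell factor, rose by 2.36 and 1.96, while Tpsab1, a tryptase, stood at -1.83 (adjusted p = 0.156 by limma, all 7 pairs lower) and Fcer1a, a chain of the IgE receptor, at -0.59. Of 26 macrophage and 29 interferon response genes 0 were higher and 0 were lower by limma (medians -0.07 and 0.07, or -0.38 and -0.14 with median scaling, which called 2 and 1 of them lower), with 3 and 1 macrophage genes and 3 and 0 interferon response genes at an unadjusted p under 0.05, shares below the 12.9% and 13.3% of all genes. Vegfa, the main growth factor of vessels, stood at 11.32, 11.74 and 13.49 in the lung metastases and 9.01, 10.45 and 11.27 in the primaries, without overlap, a call lost without FC-279, while 2 of 32 hypoxia and glycolysis genes were higher (median -0.09). Median scaling called 3 hypoxia genes, 3 p53 targets and 2 TGF-beta and BMP genes lower, shares below the 18.0% of all genes. Of 22 p53 targets 1 was higher, Fas, a death receptor (log2 fold change 1.65, adjusted p = 0.0102), and Cdkn1a, a cell cycle inhibitor, stood at 0.14 (SE 0.22). Of 38 TGF-beta and BMP genes 2 were higher, Acvrl1 and Bmp4 (1.67 and 1.49), and the Bmp4 call was lost without CRE-155, RF-212 or RF-379. The shares of hypoxia, p53 and TGF-beta and BMP genes called higher lay close to the 5.69% of all genes.

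Few genes that split the primaries split the lung metastases alike. Of 35 genes that were clearly on in some primaries and off in others, 2 (5.71%) split the lung metastases in the same way with the same gap of at least 2 log2 units. They were Kdm5d, a gene of the Y chromosome, detected on both arrays of CR-147, FC-28 and RF-364, and Gm3696, detected on both arrays of CR-147 and CRE-155. In the liver metastasis of CR-147 Kdm5d was detected (7.01) and Gm3696 was not (5.40).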

How the data were processed

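Total RNA from 27 tissue samples was hybridised to Illumina bead arrays of 1 colour, with 1 array for each sample. Per the file headers, the authors deposited an un-normalized signal per probe, an intensity on a linear scale, and a detection score from 0 to 1, from which the detection p was taken as 1 minus the score. BeadStudio is named in the submitters' processing notes, without a version. The series matrix deposited by the authors has log2 values that share 1 median across arrays, and quantile normalization without background correction came within 0.606 of each of them. It was used as an alternative and to tie scanner probes to annotated ones (45281 of 45281 matched by rank on all arrays).

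Intensities were corrected with neqc of limma 3.58.1 in R 4.3.3 (offset 16), which also takes log2 and quantile normalizes, over all 27 arrays. Of the probes, 34885 had 1 gene symbol in the platform annotation, 18 had several and 10378 had none, and 34807 matched the RefSeq table. The probe with the highest mean stood for each gene. Genes entered the test if detected (p under 0.05) on at least 7 of the 14 arrays. The 7 pairs were compared with lmFit and eBayes, two-sided, with the specimen as a block and Benjamini-Hochberg adjustment over 11214 genes. The pairing comes from the labels' specimen identifiers; deviations of the 2 samples of a specimen correlated at 0.32 to 0.55, and each of 7 lung metastases correlated best with its own primary. No 2 arrays were duplicates (highest correlation 0.958). The labels do not say that specimens are separate animals. The p-values test the mean difference between lung metastasis and primary against its spread across the 7 pairs. In eBayes that spread is drawn towards the spread of all genes tested. The fit was also run on simulated data with known fold changes. The number of arrays limits the precision.

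The members and the 39 gene lists (7 of tissues, 32 of biology; 1391 of 1504 entries named on the array) were chosen with earlier results of these data known. Named genes are the 12 highest and 12 lowest outside the tissue lists that moved one way in 7 of 7 pairs and were detected on all arrays of the higher group, without clone or predicted names, up to 4 of each biology list and 3 of each tissue list by p, and genes on or off by specimen. Lists are described by counts and medians, with no test.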

Additional observations from a re-analysis of the deposited data

Results flagged for a closer look

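The 165 sets of 7 pair differences looked at are lists and named genes, which overlap and were partly picked from these data. The rate of about 1 in 20 that Dixon's test gives by chance holds for independent sets, so it is no yardstick here. By that test 19 of the sets held a pair far from the others. In 11 of these the pair was FC-28, whose bone genes were low on both arrays; no cause was tested. Its lung metastasis minus primary difference, on the log2 scale, was 3.61 for the median of the lung vessels and stroma list (0.58 to 1.51 in the other 6 pairs), 3.32 for endothelium (-0.08 to 1.24) and 1.55 for Schwann cell genes (0.13 to 0.59). It was -1.76 for fibrillar and stromal matrix (-0.46 to 0.37) and -2.09 for matrix proteases and their inhibitors (-0.38 to 0.19). Among genes it was 5.66 for Gja5, 4.71 for Gja4 and 4.46 for Lpl, a lipase of capillaries and fat, and -4.03 for Col1a1, -3.60 for Ctsk and -6.71 for Ptn.

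The FC-279 pair stood apart for the adipocyte list, at -2.39 against -0.07 to 0.45, and for Ces1d, at 0.56 against 6.11 to 9.42. The RF-364 pair did so for Fam183b, a ciliated cell gene, at 1.84 against 4.55 to 6.48, and for Bhlhe40, a clock gene, at 1.17 against -0.11 to 0.37. The remaining ones were Marco, a macrophage receptor, at 4.13 in RF-379, Myl1, a muscle myosin light chain, at -1.87 in RF-212, and C6 and Gm3696 at 3.12 and 1.48 in CR-147.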

How the results depend on the processing

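The number of arrays limits the precision. The specimen block moved the lower calls: without it 444 genes were higher and 88 lower, 370 and 63 outside the tissue lists. Over fits that left out 1 pair, 389 to 613 genes were higher and 84 to 247 lower (318 to 531 and 63 to 208 outside the tissue lists). Leaving out RF-212 gave the fewest higher, and leaving out FC-279, RF-364, RF-212, CR-147, RF-379 or CRE-155 left 84, 93, 100, 162, 168 or 170 lower. Median scaling gave 643 higher and 2022 lower (543 and 1959 outside), with 24.1% of calls higher. Genes detected on all 14 arrays gave 273 and 142 (252 and 133). arrayWeights gave 764 and 455 (659 and 409). Background as a covariate gave 17 and 9 (8 and 9). Leaving out the 3 pairs with hepatocyte transcripts gave 373 and 51 (307 and 31). The low-background arrays, an alternative chosen after seeing the data, gave 424 and 98 (351 and 93). All 27 arrays with the specimen as a random block gave 1147 and 969 (1036 and 923). Asking also for a log2 fold change of at least 1 gave 531 and 89 (448 and 52). Quantile normalization without background correction, the authors' log2 values, neqc over 14 arrays, the mean of probes, no filter and detection on at least 3 arrays kept all 4 counts within 1.5 times.

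With background as a covariate 7 of 39 list medians had the opposite sign, among them complement (-0.17), skeletal muscle (0.01) and growth factors (-1.01), and with median scaling 6 did. Calls within lists also fell with the covariate. It left 8 of 53 lung epithelium genes higher. Of 49 detoxifying and antioxidant enzymes, 38 endothelium genes and 16 complement genes, 0 were called. Directions turned for Eif3h (0.01), Cav1 (-0.79) and C4a (-0.05) with background as a covariate, and for Fap (0.61), H2-Oa (-0.08) and Itga11 (1.05) within the low-background arrays; the cause was not tested. Fits within pairs of 2 low or 2 high arrays were not run, since 1 pair and 0 pairs were of these kinds.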

Other observations

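Position genes, which keep a record of where in the body a cell arose, gave 1 higher and 3 lower calls among 26 tested (median log2 fold change -0.10). The share higher was below the 5.69% of all genes, and 2.59% of all genes were lower. Hoxb5, a homeobox gene of the trunk and lung, had levels of 7.57, 8.58 and 11.15 (lowest, median and highest) in the lung metastases and 5.32, 6.66 and 9.03 in the primaries, and rose by 1.91 on the log2 scale (limma, adjusted p = 0.043). Zic1 fell by 1.32 and Shox2, a homeobox gene of limb skeleton, by 1.13. Zic1 was detected in 1 lung metastasis and 6 primaries. Its call was lost without CR-147, FC-279, RF-212 or RF-364, and those of Hoxb5 and Shox2 without CR-147, RF-379, CRE-155, RF-364 or RF-212.

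Other genes of matrix turnover and signalling gave single calls. Timp3, an inhibitor of matrix proteases, had levels of 11.56, 12.83 and 14.46 in the lung metastases and 10.24, 11.13 and 12.70 in the primaries (log2 fold change 1.54, SE 0.30, adjusted p = 0.015 by limma). Fap, a protease of activated fibroblasts, fell by 1.03, a call lost without FC-279 or RF-379. Ccl8, a chemokine for monocytes, fell by 2.25, and Cxcr4, the receptor of Cxcl12, rose by 0.82, while Ccrl2 and Ackr2, receptors that bind chemokines without the usual signal, rose by 1.43 and 1.94. The calls of Ccl8 and Cxcr4 were lost in 5 and 6 of the 7 fits that left out a pair. Of 26 immediate early genes 3 were higher, Ier3 (1.19), Jun (1.20) and Junb (0.60), with calls lost in 3, 5 and 6 of the 7 fits. Over all genes 5.69% were higher.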
